A study of Mus musculus with 4 samples.

Results

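Tumour cells that carried neither the stem cell receptor Lgr5 nor the tuft cell marker were set against 3 other sorted populations of tumour cells. The Lgr5- tuft marker- array was compared with each of the other arrays, and a gene was taken when its level lay 1 or more log2 units, which is 2-fold, above or below all 3 of them. The brighter side had to be well above background, by the flag of the scanner software. Of 22911 genes named on the array, 18619 were well above background on at least 1 array, and 423 of these met the rule. Of these 423 genes, 228 were higher (1.22% of the measured genes) and 195 were lower (1.05%) on the Lgr5- tuft marker- array than on every other array.

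All 4 populations came from Lgr5CreERT2/+; Ctnnb1lox(ex3)/ox(ex3) mice, collected 14 days after they received tamoxifen, and were sorted from cells bearing EpCAM, a surface protein of epithelium. In these mice tamoxifen activates a Cre recombinase made in Lgr5-expressing cells, which removes exon 3 of Ctnnb1 and leaves a beta-catenin protein that escapes degradation. With IL17RB as the tuft marker, the groups were double negative cells (Lgr5- tuft marker-), cells with Lgr5 alone (Lgr5+ tuft marker-), cells with the tuft marker alone (Lgr5- tuft marker+) and double positive cells (Lgr5+ tuft marker+), 1 array for each. The sources used here do not say whether the Lgr5- cells of a sort descended from recombined cells, how many animals were pooled, or which part of the intestine was taken. There were no replicates, so no difference was tested, no p-value is given, and every value describes these 4 arrays, whose number limits the precision.

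The intestinal lining is renewed from Lgr5-expressing stem cells at the base of the crypts, whose daughters divide several times before they become absorptive enterocytes or one of the secretory cell types. Enterocytes carry digestive enzymes and transporters on their brush border and handle fat, sugars and foreign compounds. Tuft cells are rare chemosensory cells that signal through a taste-like cascade of a phospholipase and the cation channel Trpm5, and depend on the transcription factor Pou2f3. Activated beta-catenin drives genes of growth and division.

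Levels are log2 signals with 0 set at each array's 75th percentile. Where 4 levels are listed, their order is double negative, Lgr5 alone, tuft marker alone and double positive. Between 60.1% and 68.9% of spots were well above background on the 4 arrays, and 15252 to 17088 genes. Over the 13947 genes above background on all 4 arrays, the Lgr5- tuft marker- array had a Pearson r of 0.962 with Lgr5+ tuft marker-, 0.946 with Lgr5+ tuft marker+ and 0.907 with Lgr5- tuft marker+ cells. These correlations run across genes, which are not independent replicates, and the arrays share a slide and a set of probes.

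The sort genes followed the labels. Il17rb stood at -4.70, -3.13, 0.12 and -0.38, and was not well above background on the Lgr5- tuft marker- array. Lgr5 stood at -3.19, -0.80, -5.83 and -0.78, so that it was detected, at a low level, on the Lgr5- tuft marker- array and was not well above background on the Lgr5- tuft marker+ array. Epcam, at 5.56, 5.22, 4.52 and 5.02, was high on all 4 arrays, as was Ctnnb1, at 5.23, 4.96, 4.38 and 5.07.

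The 2 enterocyte genes proposed as marks of the double negative cells did not set them apart from every other population. Fabp1, a fatty acid-binding protein of enterocytes, stood at 4.59, 2.85, 4.71 and 4.64, so that only the Lgr5+ tuft marker- array was low. Slc2a5, the fructose transporter, stood at 0.47, -2.0, -1.57 and 0.10, and was 0.37 (scanner error 0.21) above its next highest array. Of 17 measured enterocyte markers, 1 met the rule, the sucrase-isomaltase gene Sis, 5 (29.4%) lay above every other array by any amount, against 24.7% of all measured genes, and 1 lay below every other array. The median difference of these markers was 1.08 to the Lgr5+ tuft marker- array, 0.23 to Lgr5- tuft marker+ and -0.24 to Lgr5+ tuft marker+. On the median, double negative cells thus had more enterocyte signal than Lgr5+ tuft marker- cells and no more than Lgr5+ tuft marker+ cells. Apoc3, with the lowest median difference of the 17 markers, stood at -0.51, -1.64, 0.97 and 2.37. In RNA from sorted cells, a larger share of cells of a type and more RNA of its genes per cell cannot be told apart.

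Of all 228 genes that met the rule upwards, 28 were in any list, and the others were not grouped. Genes of absorption and of the metabolism of nutrients and foreign compounds made up 15 of these 28 listed genes (53.6%). The 11 lists pooled for this group hold 228 of the 799 listed genes measured (28.5%). Of the measured genes in the pooled lists, 15 (6.58%) met the rule upwards, against 1.22% of all measured genes. Which lists to pool was a choice, and these shares of listed genes depend on it. Related lists left out had no gene that met the rule upwards: villus tip (14 measured), colonocyte (15) and cholesterol synthesis (21). Among the pooled lists, lipid absorption (31 measured) and brush border structure (25) had none either. Of the 15, 10 did not meet the rule in at least 1 of the 4 other scalings: Abcc2, Cyp2c65, Cyp2c66, Ggt1, Ppara, Ppargc1a, Sis, Slc11a2, Slc39a4 and Slc3a1. Among brush border enzymes, Sis, which splits sucrose and starch products, stood at 1.1, 0.08, -0.53 and -0.24, a difference of 1.02 (error 0.21) to the next highest array. Ggt1, the gamma-glutamyl transferase that splits glutathione, stood at 2.97, 1.65, 1.38 and 1.90, a difference of 1.07 (error 0.20). The other arrays lay close together for both genes, and the Lgr5- tuft marker- array lay above them all. These were 2 of 18 measured brush border hydrolases, of which 7 (38.9%) lay above every other array and 1 (5.56%) below, against 24.7% and 19.2% of all genes. None of the 18 met the rule with the authors' scaled values or after quantile normalization.

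Transporters of sugars, amino acids and metals also met the rule. Slc11a2, which carries ferrous iron into the cell, stood at 3.11, 1.44, 1.86 and 1.32. Slc39a4, which takes up zinc, stood at 2.75, 1.59, 1.53 and 1.55, so that the other 3 arrays were nearly equal. Both belong to 21 measured genes of vitamin and mineral handling, of which 11 (52.4%) lay above every other array and 5 (23.8%) below. Slc34a2, with the lowest median difference of the 21, was among those below, at -3.78, -3.12, -2.09 and -1.44. None of the 21 met the rule with the authors' scaled values. Slc3a1, the heavy subunit of the cystine and basic amino acid carrier, stood at -0.40, -2.25, -4.16 and -1.45, and did not clear background in Lgr5- tuft marker+ cells. Slc5a9, a mannose and glucose cotransporter, stood at 0.71, -0.53, -0.95 and -0.51, and Tkfc, the triokinase of fructose breakdown, at 0.62, -0.65, -1.12 and -0.99. A second usable probe for Slc5a9 did not show the difference.

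Of 37 measured detoxification genes 5 met the rule upwards, against 1.22% of all genes. This count was 2 with the authors' scaled values, 4 with the percentile over detected probes and 0 after normexp, a background model that left 35 higher genes in all. Cyp2d26 stood at 1.82, 0.67, 0.52 and 0.68, and Abcc2, an apical pump for conjugated compounds, at 0.33, -0.82, -0.67 and -0.81. Cyp2c65, at 0.32, -0.77, -0.94 and -1.26, and Cyp2c66, at 0.79, -0.49, -0.49 and -0.50, are close relatives whose probes may each read both transcripts. Cyp3a25, at -2.17, -3.27, -3.86 and -4.88, was not well above background on either tuft marker+ array. All 5 lay above the other 3 arrays, at 2.0- to 2.42-fold over the next highest. By any amount, 15 of the 37 genes (40.5%) lay above every other array and 4 (10.8%) below. Adh1, with the lowest median difference of the 37, was among those below, at 1.02, 1.45, 4.72 and 4.69.

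Regulators of fat oxidation were also in the group. Ppara, the fatty acid-sensing nuclear receptor that controls such enzymes, stood at 0.48, -0.60, -0.96 and -0.57, and Ppargc1a, a coactivator of mitochondrial genes, at 1.03, -0.15, -0.09 and -0.20. The double negative array was the highest for both genes and the others lay close together. The other usable probe for Ppara did not show the difference, while that for Ppargc1a did.

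The promoters of these absorption and metabolism genes are shown because several share a letter string. Promoter sequences, from RefSeq on GRCm38.p6, ran from 250 bases before to 50 bases after the gene's start, and were listed for 327 of the 423 genes and for 9 of the 13 enzymes and transporters of this group. The string CAAAGTC, the core of sites for the enterocyte receptor HNF4, was present on either strand in 4 of the 9, against 4.36% of 27025 promoters and 9.25% of the 173 promoters of all higher genes. The stretches around it are at chr19:39060865-39060921 (+ strand) for Cyp2c65, chr19:39113769-39113825 (+) for Cyp2c66, chr19:10604350-10604406 (- strand) for Tkfc and chr17:85028203-85028339 (+) for Slc3a1. Capitals mark the string. In Slc3a1 they also mark a match to the GATA factor string AGATAA and one to TTTATNG, the string of CDX factors.
Cyp2c65: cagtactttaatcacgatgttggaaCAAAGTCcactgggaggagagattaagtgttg
Cyp2c66: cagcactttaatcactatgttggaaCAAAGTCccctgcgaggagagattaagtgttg
Tkfc: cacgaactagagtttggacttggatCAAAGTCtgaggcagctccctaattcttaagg
Slc3a1: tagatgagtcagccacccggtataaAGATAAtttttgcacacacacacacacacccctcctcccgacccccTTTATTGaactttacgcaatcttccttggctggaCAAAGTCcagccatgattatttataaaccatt
The Cyp2c65 and Cyp2c66 stretches are nearly the same sequence, so they do not count as separate instances. The CDX string was in 2 of 9 promoters (Sis and Slc3a1) against 11.3% of all, and the GATA string in 2 of 9 (Ggt1 and Slc3a1) against 11.4%. The strings were chosen after the values were seen, and a match is a description of letters, not of a bound site.

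DNA synthesis genes formed the second listed group of higher genes. Of 35 measured S phase genes, 6 met the rule upwards and none downwards, against 1.22% of all genes upwards. By any amount, 24 of the 35 (68.6%) lay above every other array, against 24.7% of all genes, and 1, Gins2, below. The median difference was 0.43 to Lgr5+ tuft marker-, 0.74 to Lgr5- tuft marker+ and 0.38 to Lgr5+ tuft marker+ cells. Across the other scalings, probe rules and detection flags tried, 20 to 25 members lay above every other array and 3 to 6 met the rule. Most of these genes thus lay above the other arrays by less than 2-fold.

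Uhrf1, which carries DNA methylation through replication, stood at 3.02, 1.73, 1.54 and 1.51, a difference of 1.29 (error 0.20) to the next highest array. Mcm3, a subunit of the replicative helicase, stood at 2.64, 1.42, 1.40 and 1.51, and both of its other usable probes lay on the same side. In at least 1 of the 4 other scalings Mcm3 did not meet the rule. The other 3 arrays were nearly level for each gene, and only the double negative array stood out. Among the enzymes of DNA precursors, Tyms, thymidylate synthase, stood at 1.96, 0.70, 0.44 and 0.48, and Rrm2, the small subunit of ribonucleotide reductase, at 0.73, -0.91, -1.0 and -0.41. Rpa2, a subunit of the single-strand binding complex, stood at -0.09, -1.47, -1.87 and -1.24. Pole, the leading-strand polymerase, stood at -1.28, -3.55, -3.66 and -4.12, was not well above background on either tuft marker+ array, and was at least 4.37-fold higher than on any other array.

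Other genes of the same pathway were picked once their values were known. Shmt2, the mitochondrial enzyme that supplies one-carbon units, stood at 2.51, 1.20, -0.09 and 0.64. Brca1 stood at 0.06, -1.52, -1.28 and -1.84, and Pold1, a catalytic polymerase subunit, at 0.42, -0.78, -1.30 and -0.70. The double negative array was the highest for each of these 3 genes. Not all replication genes shared the shape: Mcm5 stood at 1.75, 1.0, 1.85 and 2.5, and Mcm2 at -1.19, -1.47, -3.02 and -0.97, with the Lgr5+ tuft marker+ array the highest for both.

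Promoters of the S phase genes are shown for the same reason. The E2F string TTCCCGC or TTGGCGC was present in 3 of the 5 that were listed (Mcm3, Rpa2 and Uhrf1), against 6.93% of all promoters and 12.1% of those of all higher genes. The stretches are at chr4:132768298-132768354 (+) for Rpa2 and chr17:56303264-56303320 (+) for Uhrf1, and capitals mark TTCCCGC or its reverse complement, which begins 37 and 48 bases before the start.
Rpa2: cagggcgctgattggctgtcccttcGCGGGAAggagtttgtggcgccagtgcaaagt
Uhrf1: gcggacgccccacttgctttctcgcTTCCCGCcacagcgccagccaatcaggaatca
The string CCAAT, also searched on both strands, was in 4 of these 5 promoters and in 7 of the 9 above. It was in 37.9% of all promoters and in 47.4% of those of all higher genes.

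Mitotic and growth genes had fewer members past the threshold. Ccna2, the cyclin of S phase and early mitosis, stood at 1.77, 0.60, 0.12 and 0.68, and was the 1 of 35 measured G2/M genes that met the rule, while 21 of the 35 (60%) lay above every other array and 4 below. Ccnd1, a cyclin that beta-catenin can induce, stood at 2.40, 0.99, 0.61 and 1.15. It was the 1 of 28 measured Wnt targets that met the rule upwards, with 8 members (28.6%) above every other array and 5 (17.9%) below, close to the 24.7% and 19.2% of all genes. Areg, a ligand of the EGF receptor, was at 2.5, 1.38, 0.69 and 0.59. It stands here in the list of innate lymphoid and mast cells and in that of fetal-like and regenerative genes. In each list, of 13 and 19 measured genes, it was the 1 that met the rule upwards. Ddit3, a stress-induced transcription factor of the unfolded protein response, stood at 0.62, -0.83, -1.16 and -1.0, and was the 1 of 21 members of that list that met the rule.

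**Figure D1:**
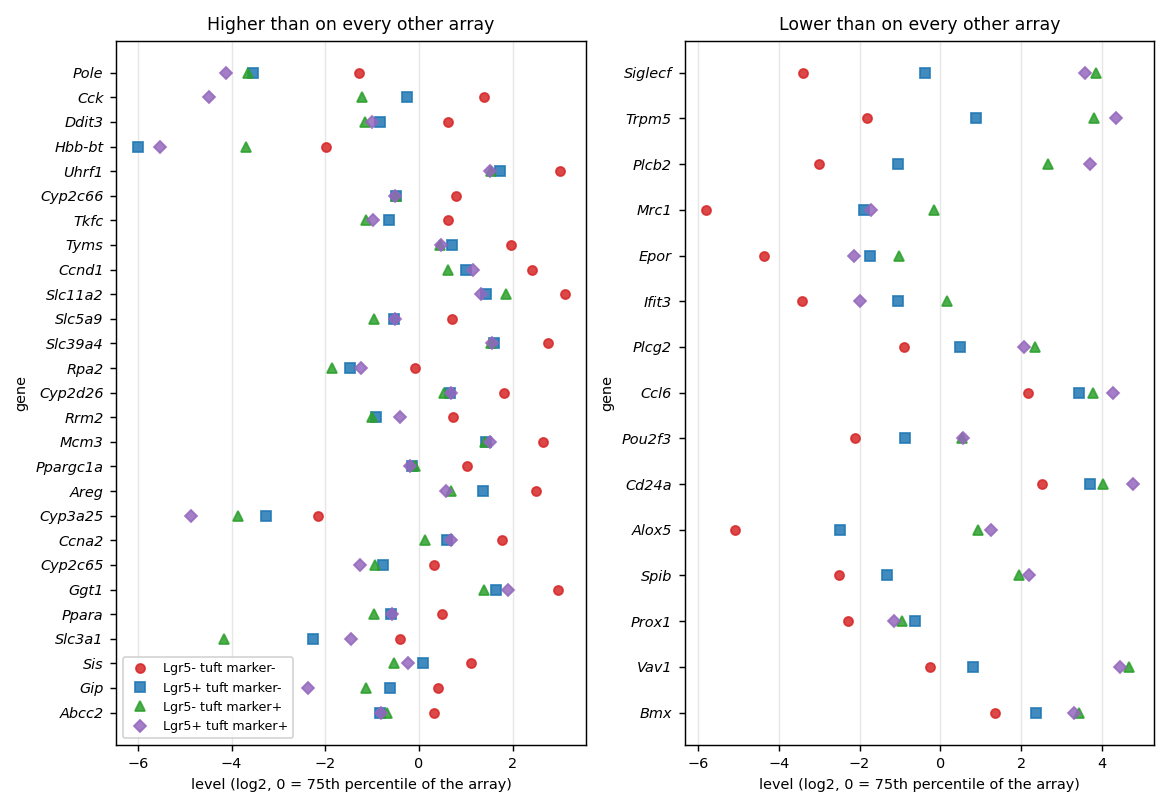
Level (log2, 0 at the 75th percentile of the array) of listed genes that met the rule, with 1 point per array, for genes higher (left) and lower (right) on the Lgr5- tuft marker- array, which is the red circle. For most higher genes the other 3 arrays lie close together, as for Uhrf1 at 1.51 to 1.73, while for most lower genes they spread, as for Siglecf at -0.37 to 3.85.

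Hormone genes of enteroendocrine cells, which sense food in the gut lining, were higher as well. Cck, the gut hormone cholecystokinin, stood at 1.39, -0.26, -1.22 and -4.48, was 3.14-fold above the next highest array and was not well above background on the Lgr5+ tuft marker+ array. Gip, the incretin hormone, stood at 0.40, -0.62, -1.13 and -2.37. Both hormones followed the same order of arrays, from double negative to double positive. Of 21 measured enteroendocrine genes these 2 met the rule, 8 (38.1%) lay above every other array and 2 (9.52%) below. Chga, the granule protein used as a general marker of these cells and picked out after its value was seen, stood at 2.45, 1.91, -0.48 and 0.86. Sct, at 2.28, 0.71, 2.41 and 2.73, was highest on the Lgr5+ tuft marker+ array, so the hormones did not move as 1 group.

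The remaining listed higher gene, the beta-globin gene Hbb-bt, is a red cell gene. It stood at -1.98, -6.01, -3.70 and -5.53, was well above background on the double negative array only, and carried a scanner error of 1.46. The erythroid list had 6 measured members, of which Slc4a1 (-2.88, -1.75, -1.17 and -2.06) lay below every other array and Epor met the rule downwards.

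Outside the lists, the higher genes with the largest differences and above background on all 4 arrays were of mixed function. Kdm3b, a histone demethylase, stood at -0.07, -3.35, -2.73 and -2.35, a 4.85-fold difference to the next highest array. It was followed by Serpinb5 (2.01 above the next highest array), C1ql4 (2.0), Urgcp (1.91), Zfp472 (1.90), 1700029J03Rik (1.87) and Prpf4, a splicing factor (1.85). On no array did any of these but Prpf4, at 1.74, exceed the 0.26 of C1ql4. Mboat1, an acyltransferase of membrane phospholipids, was brighter, at 4.0, 1.70, 2.35 and 2.16, with a difference of 1.65 (error 0.20). Ckb, brain-type creatine kinase, at 5.35, 4.03, 3.99 and 4.26, and Pklr, a pyruvate kinase, at 3.43, 2.07, 2.15 and 2.23, were also bright. Both were picked once their values were known.

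**Figure D2:**
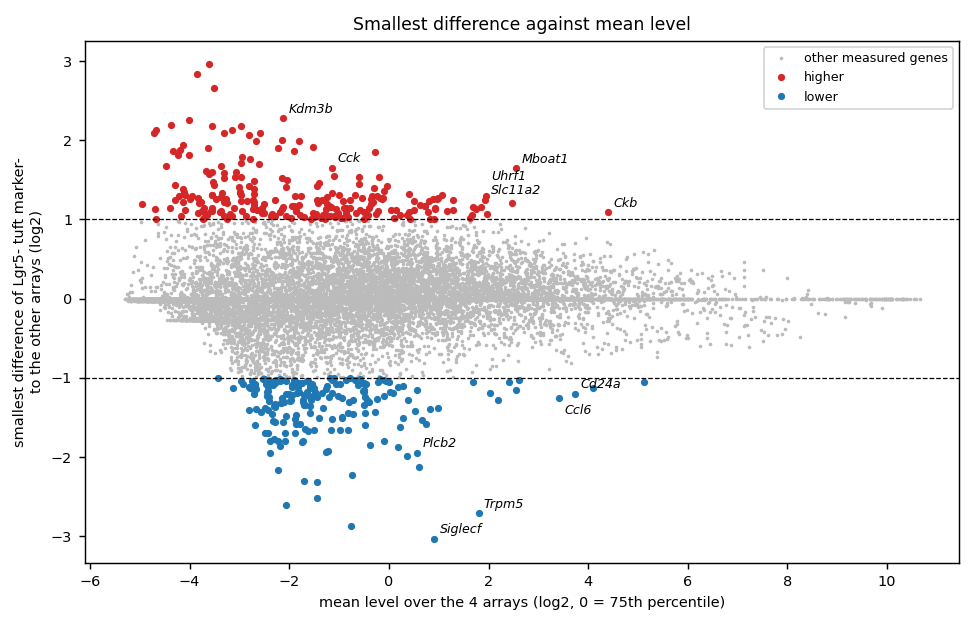
Smallest log2 difference of the Lgr5- tuft marker- array to the other 3 arrays (y) against the mean level over the 4 arrays (x), 1 point per measured gene, with the 228 higher genes in red and the 195 lower genes in blue beyond the dashed lines at 1 and -1. Genes whose level lay between those of the other arrays are drawn at 0, and few genes with a mean level above 1 pass the lines (15 higher and 11 lower).

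Tuft cell genes were the largest listed group among the lower genes. Only 16 of the 195 lower genes were in any list, so the others were not grouped. Of 30 measured tuft cell markers, 11 met the rule downwards (1.05% of all genes did) and none upwards, and 20 (66.7%) lay below every other array, against 19.2% of all genes. The median difference was -0.85 to Lgr5+ tuft marker- cells, -3.50 to Lgr5- tuft marker+ and -3.31 to Lgr5+ tuft marker+ cells. The sort removed cells with the tuft marker, so both tuft marker+ arrays differ from the double negative array by the gate, and Lgr5+ tuft marker- cells, which passed the same gate, are the other comparison. The gene of the gate itself, Il17rb, is in this list and among the 20 that lay below every other array. It did not clear background in double negative cells, and was at least 1.47-fold lower than in Lgr5+ tuft marker- cells (error 0.74 on the log2 scale). Across the other settings tried, 4 to 13 members met the rule, and 18 to 22 lay below every other array.

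Genes of the taste-like cascade were among them. Trpm5, its cation channel, stood at -1.83, 0.88, 3.8 and 4.35, and was 6.52-fold lower than on the Lgr5+ tuft marker- array, the next lowest (difference -2.71, error 0.23). Plcb2, its phospholipase, stood at -3.01, -1.06, 2.66 and 3.71, a difference of -1.95, which turned to 0.17 with the mean of all its probes. Plcg2, another phospholipase, stood at -0.90, 0.48, 2.33 and 2.07. For all 3 genes the Lgr5+ tuft marker- array lay between the double negative and the tuft marker+ arrays.

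Surface, transcription and lipid mediator genes had the same order. Siglecf, a sialic acid-binding lectin, stood at -3.41, -0.37, 3.85 and 3.57, and was 8.18-fold lower than on the next lowest array, the widest difference among lower genes well above background on all 4 arrays (-3.03, error 0.32). Pou2f3, the factor that tuft cells require, stood at -2.12, -0.89, 0.53 and 0.56, and Spib, an ETS factor, at -2.52, -1.33, 1.95 and 2.20. The double negative array was the lowest for each. Alox5, the 5-lipoxygenase, stood at -5.08, -2.49, 0.94 and 1.25, was not well above background in double negative cells, and was at least 2.29-fold lower.

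Other tuft markers were present in double negative cells at a reduced level. Cd24a, a surface glycoprotein, stood at 2.5, 3.70, 4.01 and 4.76, Bmx, a Tec-family kinase, at 1.34, 2.37, 3.42 and 3.31, and Vav1, an exchange factor, at -0.25, 0.80, 4.67 and 4.43. Dclk1, the tuft cell kinase, which was chosen after its value was seen, stood at -0.12, 0.73, 3.81 and 4.22 and missed the threshold at -0.85. Trim38, at -2.04, -3.61, -0.19 and 0.80, and Fyb, at 0.03, -0.35, 4.44 and 4.03, also chosen so, were lowest on the Lgr5+ tuft marker- array. The shift to the Lgr5+ tuft marker- array therefore did not include every marker.

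None of the 8 tuft gene promoters that were listed held ATGCAAA, part of the octamer that POU factors bind, against 4.59% of all promoters. Of the other strings, 1 of the 8 held CAAAGTC, 3 TTTATNG, 1 AGATAA, 1 CCAAT and none the E2F strings.

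Some of the lower tuft genes are also genes of white blood cells, and markers of those cells moved along the tuft marker sort. Of 23 measured myeloid markers 1 met the rule downwards, Mrc1, a mannose receptor, at -5.80, -1.89, -0.16 and -1.72 (at least 3.47-fold lower, error 1.46), 1 lay above every other array and 5 below. Their median difference was 0.59 to Lgr5+ tuft marker-, -4.13 to Lgr5- tuft marker+ and -3.0 to Lgr5+ tuft marker+ cells, so that they were not lower than in Lgr5+ tuft marker- cells on the median. Tyrobp, a signalling adaptor of myeloid cells, stood at 0.63, -2.06, 4.91 and 3.56, and Aif1 at -0.37, -2.44, 4.05 and 2.70. The log2 of the summed level of the list was 9.31, 9.11, 9.74 and 9.59, with 20, 16, 23 and 22 of 23 markers well above background. Most of that sum came from Itgam, at 9.19, 8.98, 9.34 and 9.33. The part of such cells in the tuft gene differences was not tested.

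Of the other lower listed genes, Ccl6, a chemokine in the goblet cell list, stood at 2.17, 3.43, 3.77 and 4.28. Prox1, a homeobox gene in the Wnt target list, stood at -2.30, -0.63, -0.95 and -1.16, and Ifit3, an interferon-induced gene, at -3.42, -1.04, 0.15 and -1.98. Epor, the erythropoietin receptor, stood at -4.36, -1.75, -1.03 and -2.14 and was not well above background in double negative cells. Each was the only member of its list to meet the rule downwards, among 19 goblet, 28 Wnt target, 22 interferon and 6 erythroid genes measured.

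Outside the lists, several lower genes encode proteins of calcium, phosphoinositide and G protein signalling. Itpr1, an inositol trisphosphate receptor that releases stored calcium, stood at -3.44, -0.92, -0.63 and -0.80, and was not well above background in double negative cells and at least 5.72-fold lower there. Gng11, a G protein gamma subunit, stood at -1.33, 0.54, 0.62 and 0.88, and Dgki, a diacylglycerol kinase, at -2.83, -1.17, 0.38 and 0.30. Rgs10, a G protein regulator, stood at -3.09, -1.58, 3.65 and 2.16. Across the settings tried, the smallest difference to another array shrank to -0.032 for Itpr1, -0.064 for Dgki, -0.33 for Rgs10 and -1.11 for Gng11. Itpr2, at -2.89, -1.44, 1.20 and 1.25, and the calcium pump gene Atp2a3, at 2.92, 3.97, 6.37 and 7.23, were picked once their values were known. No list of this pathway was made, so no share of its genes is given.

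Other lower genes with large differences were of mixed function. Igf1r, the receptor of insulin-like growth factor 1, stood at -0.58, 1.0, 1.21 and 1.35, and Thbs1, a matrix glycoprotein, at -0.84, 0.69, 1.71 and 1.1. A second usable probe of each gene did not show the difference. Celsr1, a planar polarity cadherin, stood at -2.96, -1.03, -0.89 and -0.20, Tbc1d8 at -1.30, 0.82, 1.54 and 1.35, and Cd300lf, an inhibitory receptor, at -5.16, -0.81, 1.57 and 1.37 (at least 7.34-fold lower). The other 3 arrays were close together for Igf1r, Tbc1d8 and Gng11, and spread along the tuft marker for Cd300lf and Rgs10.

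Below the 2-fold threshold, most members of some lists of abundant genes lay above every other array. Of 32 measured genes of oxidative phosphorylation, which make the mitochondrial respiratory chain and ATP synthase, 27 (84.4%) lay above every other array and none below, though none met the rule. Their median difference was 0.44 to Lgr5+ tuft marker-, 1.0 to Lgr5- tuft marker+ and 0.41 to Lgr5+ tuft marker+ cells. Ndufs1, a subunit of complex I, stood at 2.82, 2.06, 1.29 and 2.22, and Cyc1, a subunit of complex III, at 3.26, 2.66, 1.81 and 2.43, both chosen after their values were seen. In each setting tried, 25 to 28 of the 32 lay above every other array.

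Of 34 cytoplasmic ribosomal protein genes, 29 (85.3%) lay above every other array and none below, with medians of 0.16, 0.93 and 0.36 in the same order. Their count ranged from 19 to 31 over the settings, and was 19 after quantile normalization and with the authors' scaled values. Rps2 stood at 3.32, 2.88, 2.21 and 2.89, and Rpl7 at 5.10, 4.8, 3.99 and 4.56, chosen after their values were seen. For single ribosomal genes the step to the Lgr5+ tuft marker- array was mostly smaller than the scanner error of about 0.20. Of 21 glycolytic genes 14 (66.7%) lay above every other array and 2 below, with medians of 0.82, 0.71 and 0.31. Gapdh stood at 7.73, 6.79, 6.75 and 7.27, and Pgam1 at 5.94, 4.89, 5.13 and 5.32.

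Over all measured genes, the median difference was -0.0044, -0.083 and 0.0060 to the same 3 arrays. Scaling to the array median moved it to 0.11, 0.15 and 0.020, and the authors' scaling to -0.073, -0.38 and -0.12. The medians of the oxidative phosphorylation, ribosomal, S phase and tuft cell lists kept their sign to all 3 arrays under each setting.

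Genes that respond to cell dissociation lay on the other side. Of 22 measured, none lay above every other array and 13 (59.1%) lay below, with medians of -0.32, -0.56 and -0.49. Fos stood at 2.70, 3.22, 3.39 and 3.60, and Egr2, a growth-induced zinc finger gene, at 0.83, 1.68, 2.90 and 2.84. The number below ranged from 8 with scaling to the array median to 18 with the authors' scaled values. Their part in the other differences was not tested.

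**Figure D3:**
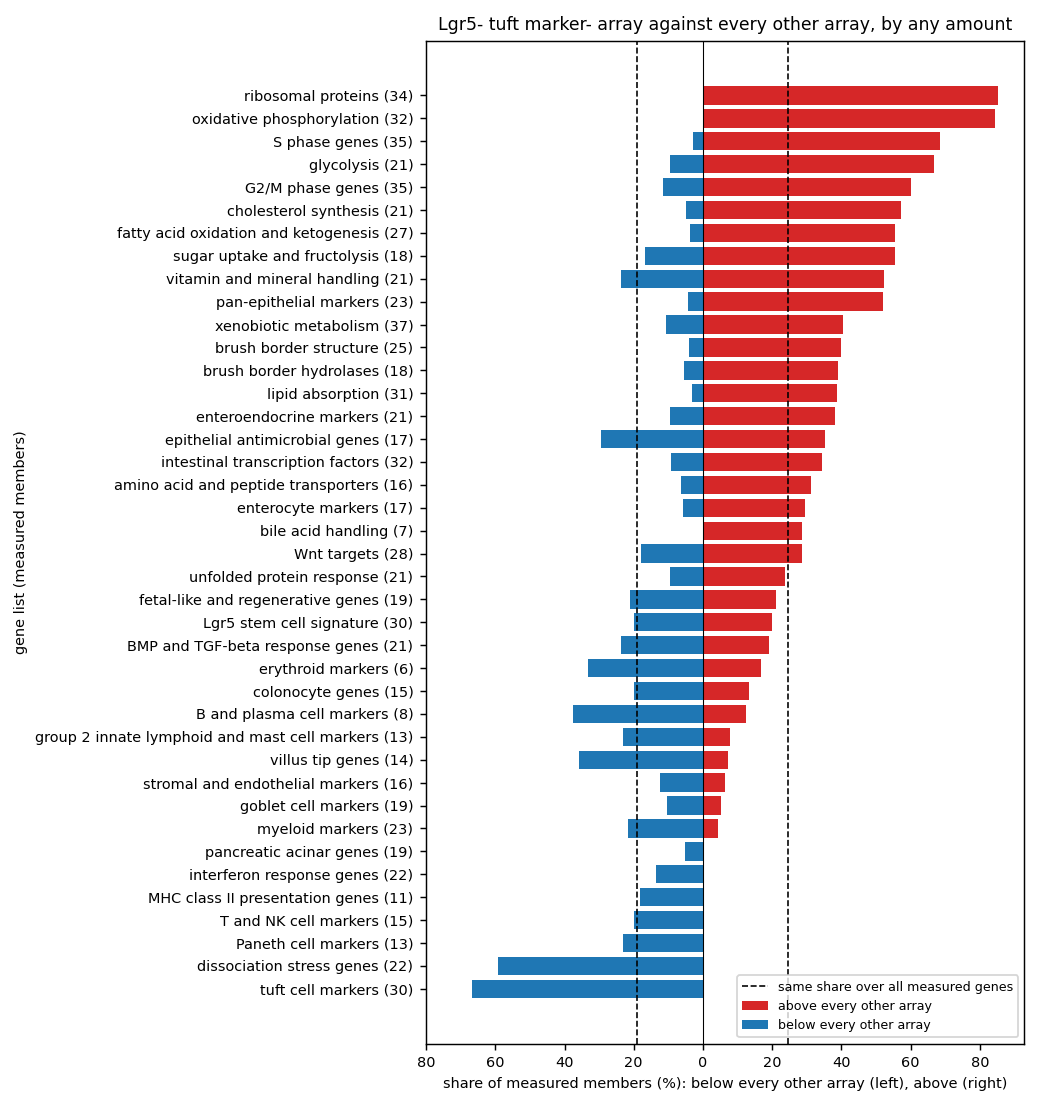
Share of the measured members of each gene list (number in brackets) whose level on the Lgr5- tuft marker- array lay above (red, right) or below (blue, left) all 3 other arrays by any amount, with dashed lines at the shares over all measured genes, 24.7% and 19.2%. Ribosomal, oxidative phosphorylation and S phase genes have the longest red bars, and tuft cell and dissociation stress genes the longest blue bars.

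**Figure D4:**
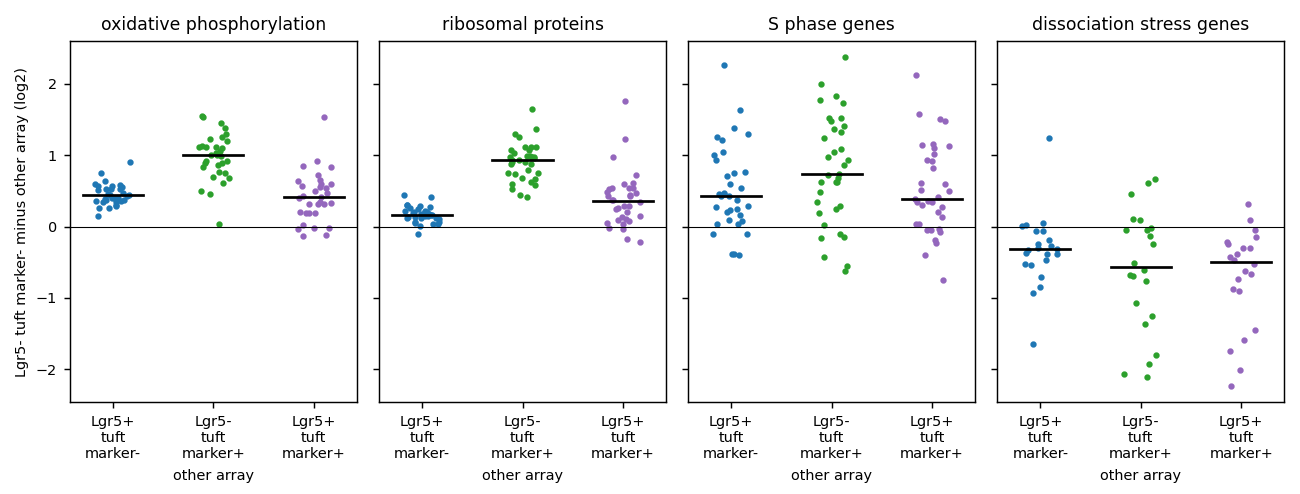
Log2 difference of the Lgr5- tuft marker- array to each other array for members of 4 lists, 1 point per gene, with the black bar at the median. Oxidative phosphorylation genes lie mostly above 0 with medians of 0.44, 1.0 and 0.41, and dissociation stress genes mostly below 0 with medians of -0.32, -0.56 and -0.49.

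Markers of other cell types that an epithelial gate can carry differed between the arrays. Pancreatic digestive enzyme genes had medians of -1.79 to Lgr5+ tuft marker-, -1.87 to Lgr5- tuft marker+ and 1.73 to Lgr5+ tuft marker+ cells over 19 genes, with none above every other array and 1 below. The log2 of their summed level was 6.0, 7.16, 6.77 and 4.92, and 19, 19, 19 and 11 of 19 were well above background. On the double negative array most of that sum came from Zg16, which is also in the goblet cell list, at 5.20, 5.72, 3.65 and 3.62. For the Paneth cell list the log2 of the summed level was 8.30, 9.69, 7.56 and 9.35, so that both Lgr5- arrays were lower than both Lgr5+ arrays. T and NK cell markers summed to 5.02, 5.53, 6.09 and 5.05, with 12, 12, 15 and 10 of 18 well above background. Stromal and endothelial markers summed to 5.44, 5.08, 6.05 and 5.44. On both tuft marker- arrays most of that sum came from Acta2, at 5.32, 4.94, 4.52 and 4.86. The median difference of the stromal list was 0.08 to Lgr5+ tuft marker-, -2.80 to Lgr5- tuft marker+ and -1.86 to Lgr5+ tuft marker+ cells. Pan-epithelial markers summed to 8.52, 8.23, 8.31 and 8.71, with all 23 well above background on each array. The part of the other cell types in the 423 differences was not tested.

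The number of genes that stood apart was not particular to the double negative array. By the same rule, the Lgr5+ tuft marker- array had 189 higher and 197 lower genes (1.02% and 1.06%), the Lgr5+ tuft marker+ array 266 and 157 (1.43% and 0.843%), and the Lgr5- tuft marker+ array 680 and 443 (3.65% and 2.38%). Against single arrays, double negative cells had 920 genes at least 2-fold above and 1129 below Lgr5+ tuft marker- cells (5.26% and 6.46%). Against Lgr5+ tuft marker+ cells these were 1060 and 1628 (6.33% and 9.72%), and against Lgr5- tuft marker+ cells 2187 and 2926 (12.2% and 16.4%). These comparisons share arrays and are not independent of each other.

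**Figure D5:**
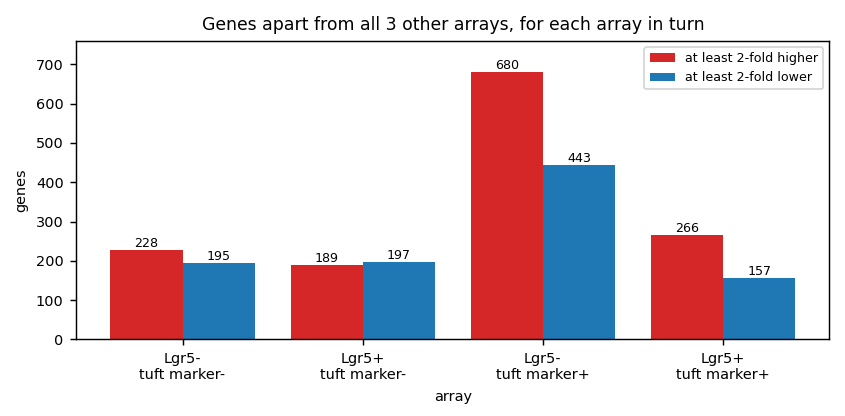
Number of genes at least 2-fold higher (red) or lower (blue) on 1 array than on all 3 others, for each array in turn. The Lgr5- tuft marker- array has 228 and 195, close to the Lgr5+ tuft marker- array with 189 and 197, and the Lgr5- tuft marker+ array has the most, 680 and 443.

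Most of the 423 genes lay near the threshold. The smallest difference to another array was under 1.5 for 180 of 228 higher and 145 of 195 lower genes, with medians of 1.22 and -1.24, and 15 and 10 were 4-fold or more apart. Just inside the threshold were Gid4, Nat8f5 and Prpf31 among higher genes (each 1.0) and Dyrk4, Emp3 and Hscb among lower genes (each -1.0). Just outside lay Snrpd3, Agps and Nbn (0.999, 0.999 and 0.998) and Rbm4b, 0610039K10Rik and Alox5ap (-0.998, -0.995 and -0.993). Genes on either side of the threshold thus differed by less than the scanner error.

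Many were also dim. Of the higher genes 131 were well above background on all 4 arrays and 97 gave only a lower limit, and of the lower genes 130 and 65. The widest of these limits among the higher genes, at least 2.96, belonged to Olfr678, an odorant receptor gene at -0.46 in double negative cells and not well above background elsewhere. Next among the limits came Gm12426 (at least 2.83), the nuclear pore gene Ndc1 (at least 2.66) and the protease gene Tmprss7 (at least 2.25). The higher genes made up 1.91% of genes with a mean level below -3 and 0.356% of those above 1, and the lower genes 2.28% of those between -3 and -1 and 0.261% of those above 1. The nearest array was Lgr5+ tuft marker+ for 105 of the higher genes, and Lgr5+ tuft marker- for 116 of the lower genes.

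Different probes of a gene did not always give the same answer. Of 55 higher genes with another usable probe, all such probes lay on the same side in 34, and of 29 lower genes in 17. The smallest difference was at least 2 times its scanner error for 203 higher and 179 lower genes, and all 3 differences were so for 180 and 179. That error comes from the scanner software and holds nothing of how animals, sorts or labellings vary.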

How the data were processed

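RNA of 4 sorted tumour cell populations was measured on 1 one-colour Agilent array each, from 13 ng of total RNA. Per the file headers, Agilent Feature Extraction (12.0.3.1 there, 11.5.1.1 in the submitters' processing notes) had subtracted background from the deposited intensity values, detrended them within the array and set the detection flags, with no scaling between arrays. The authors' deposited table holds the same intensity values multiplied by 1 constant per array.

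Control and outlier spots were left out, copies of a probe were averaged, and log2 signals were centred on the 75th percentile of each array. A gene was represented by its brightest probe on average, named through RefSeq accessions for 32994 of 56604 probes. Each array had a floor, the lowest level among its probes well above background (-3.86 to -3.41). Levels under it were set to the floor, which makes a difference a lower limit, and differences with neither side above background were left out. With 1 array per group no test was possible. The calling step was tested on simulated data. Alternatives changed the scaling, background correction (normexp in limma 3.58.1, offset 50, on median signals), probe rule, detection flag, floor, threshold and arrays compared.

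The genes, markers and 40 gene lists were chosen with earlier results of these data known. Named are the sort genes, Fabp1 and Slc2a5, listed genes that met the rule (some genes are not reported here), the 25 largest differences each way above background on all arrays and the 10 largest limits, the 3 genes on each side of the threshold, and each list's extremes. Any other gene was chosen after its values were seen. Python 3.11.15, pandas 2.3.3 and R 4.3.3 were used. Probes without a name were not used for genes.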

Additional observations from a re-analysis of the deposited data

How the results depend on the processing

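The counts of genes above and below every other array, 228 and 195, changed with background correction, detection flag, scaling and threshold. They were 35 and 15 after normexp, 382 and 574 with the other detection flag (positive and significant), 823 and 648 at 1.5-fold and 15 and 10 at 4-fold. With the authors' scaled values 143 genes were higher and 273 lower. Higher genes made up 53.9% of the calls, 66.7% with scaling to the array median, 34.4% with the authors' scaling, 70.0% after normexp and 40% with the other flag, so the balance of the directions was not settled. Against Lgr5+ tuft marker- cells alone 920 and 1129 genes met the threshold, and against both tuft marker+ arrays 594 and 1007. Chosen after seeing the data, a comparison with both Lgr5+ arrays gave 307 and 301, and keeping genes above background on all arrays left 131 and 130. With 75th percentiles over detected probes the counts were 189 and 228, and with quantile normalization 236 and 151.

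In all 4 scalings (array median, detected probes, authors' and quantile) 143 higher (62.7%) and 140 lower genes (71.8%) met the rule, among them 15 of 28 and 14 of 16 listed genes. The listed genes that did not were Ccna2, Gip, Mcm3 and the absorption and metabolism genes named above among the higher, and Bmx and Vav1 among the lower. Many genes outside the lists did not either, among them Pold1, Ckb, Pklr, Atp2a3, Vmn1r122 and Vmn1r151. The same held for Gid4, Nat8f5, Prpf31, Dyrk4, Emp3 and Hscb, just inside the threshold. The mean of all probes turned the smallest difference of Usp44 to -0.29, Wipf1 to -0.33, Grin2a to -0.078, Plcb2 to 0.17, Strip2 to 0.17 and Rasa3 to 0.23. The cause was not tested. Both directions together, the Lgr5- tuft marker+ array had the most genes by the same rule under each of these scalings. No paired analysis was possible because each group has 1 array. Signal over background limited 97 higher and 65 lower differences to lower limits.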

Other observations

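Probes without a gene name held differences as well. Of 16941 such probes above background on at least 1 array, 194 (1.15%) were higher and 144 (0.850%) lower on the Lgr5- tuft marker- array than on every other, against 383 (1.45%) and 262 (0.995%) of 26328 named probes. What they measure is not known from the tables used here.

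Odorant, vomeronasal and trace amine receptor genes, best known from the sense of smell, were among the dim genes that met the rule. Of 702 such genes above background on at least 1 array, 3 were higher (0.427%) and 7 lower (0.997%), close to or under the 1.22% and 1.05% of all measured genes. The 7 lower genes were Olfr392, Vmn1r122, Vmn1r131, Vmn1r139, Vmn1r151, Vmn1r181 and Vmn1r230, chosen after their values were seen, at levels of -3.91 to -2.91 in double negative cells.

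Markers of a villus tip programme lay lower in double negative cells than in both tuft marker+ populations. Their medians were 0.10 to Lgr5+ tuft marker-, -0.69 to Lgr5- tuft marker+ and -1.10 to Lgr5+ tuft marker+ cells over 14 genes, of which 1 lay above every other array and 5 below. Ada, adenosine deaminase, stood at 1.86, 1.47, 4.01 and 5.69, and the nucleoside transporter Slc28a2 at 2.27, 2.5, 4.41 and 5.22, while Krt20, a keratin of differentiated cells, stood at 4.66, 3.88, 4.44 and 5.12, in the order double negative, Lgr5 alone, tuft marker alone and double positive. These genes were chosen after their values were seen.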
